A study of Mus musculus with 4 samples.

Results

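The IκB family and the NF-κB feedback genes were read in stimulated CD4+ T cells, as 9 of the 16142 genes in the deposited table. They were taken by symbol from a fixed list: the classical inhibitors Nfkbia, Nfkbib and Nfkbie, the nuclear IκB genes Nfkbid, Nfkbiz and Bcl3, and the feedback genes Tnfaip3, Tnip1 and Traf1. The study expressed R111A, a form of the RNase Regnase-1 whose arginine at the MALT1 cleavage site is replaced by alanine, in mouse T cells. The transgene was driven by the CAG promoter at Rosa26 behind a loxP-flanked STOP, with a P2A-EGFP tag, and was switched on by Cd4CreERT2 and tamoxifen (75 mg/kg for 5 days), in mice on a C57BL/6 background, of both sexes and aged 6 to 12 weeks unless otherwise specified. Splenic CD4+ T cells were enriched with beads and sorted, the R111A cells by GFP, and the WT cells came from C57BL/6 mice, for which tamoxifen is stated in other experiments of the study and not restated for these libraries. RNA was taken 12 h after stimulation through CD3 (antibody at 5 µg/mL) and CD28 (1 µg/mL), for 2 WT and 2 R111A libraries. The model gives expression from a strong promoter in sorted cells that recombined, with the endogenous gene in place, so a difference is between a Cre-driven, GFP-gated group and a WT group and not between alleles of 1 locus.

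In resting T cells, IκB proteins hold NF-κB dimers in the cytoplasm. After T cell receptor and CD28 signals, IκB kinase is activated, the classical IκB proteins are phosphorylated, tagged with ubiquitin by the SCF β-TrCP ligase and degraded, and NF-κB enters the nucleus. There it induces its own inhibitors, such as IκBα and the ubiquitin-editing protein A20, while the nuclear IκB proteins bind NF-κB on DNA and can raise or lower transcription of chosen target genes.

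The label of the cells was checked against marker genes. Cd4, which defines the labelled cell type, had 158 and 131 FPKM in WT replicates 1 and 2, against 70.7 and 51.4 FPKM in R111A replicates 1 and 2. It was thus present in every library and lower in both R111A libraries. The 9 T cell markers summed to 2115 and 2107 FPKM in WT and to 1765 and 1625 FPKM in R111A, with Cd3g the most abundant by the mean of the 4 libraries. On FPKM, 1 of the 9 was called higher and 5 lower, beside 21.2% and 32.1% of all genes tested. After each library was rescaled to the same total (TPM), 0 were called higher and 7 lower, beside 13.5% and 51.8%. The 6 markers of activated T cells summed to 595 and 612 FPKM in WT and to 1754 and 1508 FPKM in R111A. Of these, 4 were called higher and 2 lower, both on FPKM and in TPM. Nr4a1 was the most abundant by the mean of the 4 libraries, at 146, 144, 983 and 616 FPKM. The higher sum came from Nr4a1, Cd69, Egr1 and Egr2, while Cd44 (31.4, 28.8, 12.6 and 13.2 FPKM) and Tfrc (110, 115, 23.1 and 39.0 FPKM) were lower in both R111A libraries. The list thus split at the same 12 h of stimulation, and whether the members moved with the stage of activation was not tested. The paper also reports marked apoptosis of stimulated R111A conventional CD4+ T cells at a later time. The part of dying cells in the differences was not tested. The 2 Treg markers summed to 15.8 and 13.1 FPKM in WT and to 5.21 and 6.22 FPKM in R111A, with Foxp3 the most abundant by the mean of the 4 libraries. The 2 CD8 markers, led by Cd8b1, summed to 7.31, 6.76, 3.88 and 4.46 FPKM in the same order. The lower Treg sum came mostly from Foxp3, at 11.3 and 8.78 FPKM in WT against 2.86 and 1.86 FPKM in R111A. Ikzf2 overlapped between the groups on FPKM, at 4.50 and 4.34 against 2.35 and 4.36. In TPM it was called lower (-0.63, adjusted p = 0.021). Markers of both cell types were low beside Cd4, and whether Tregs were gated out of the sorted cells is not stated for these libraries.

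RNA of other cells was low but uneven between the groups. Over all genes tested, whose mean reached 1 FPKM, 32.0% were higher in both R111A libraries and 46.3% lower in both. Most of the markers in this paragraph lay under that mean. The 6 B cell markers, led by Cd79a, summed to 2.15 and 1.01 FPKM in WT and to 5.21 and 4.54 FPKM in R111A. Of the 6, 2 were higher in both R111A libraries and 1 was lower in both. The 6 myeloid markers, led by Lyz2, summed to 0.680 and 0.120 FPKM against 4.92 and 4.67 FPKM, with all 6 higher in both R111A libraries. All 3 NK cell markers, led by Klre1, were also higher, at sums of 0.150 and 0.0200 against 1.18 and 1.36 FPKM. The 4 erythroid markers, led by Hba-a1, summed to 0.660 and 0.700 FPKM against 12.8 and 12.9 FPKM, and Hbb-bs was at 0 in all 4 libraries. The part of these cells in the differences below was not tested. In bulk RNA, fewer cells of a type and less RNA per cell cannot be told apart.

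The libraries differed in the total of their FPKM values. The FPKM values summed to 801475 and 836143 in the WT libraries and to 1053551 and 1012215 in the R111A libraries, with 12665, 12728, 13438 and 13364 genes above 0. Steps among low values show the FPKM that 1 read gives. Relative to WT replicate 1 these steps were at 1.00 in WT replicate 2, 1.07 to 1.23 in R111A replicate 1 and 1.15 to 1.23 in R111A replicate 2, depending on how they were binned. By this rough estimate the R111A libraries appeared somewhat shallower than the WT libraries, and read counts were not available to check it. Over the 9831 genes tested, the SD of the log2 ratio was 0.135 between the WT libraries and 0.318 between the R111A libraries, against 0.650 to 0.661 between groups. The R111A replicates were therefore the less alike pair, which several members below share. The median log2 fold change of all genes was -0.12 on FPKM and moved to -0.42 when each library was rescaled to TPM, so a change is also given relative to this median. Fold changes were taken on log2(FPKM + 1), which understates changes of low genes. The p-values measure the spread of these 4 samples, because the labels do not say that replicates are separate animals. An exact permutation test of 2 against 2 cannot give a p under 0.333, so the adjusted p rests on the model fitted across genes.

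All 9 genes passed the filter, and they covered more than a 10-fold range of FPKM in WT cells. Nfkbia stood highest, then Nfkbib and Nfkbid, with no overlap between these 3 genes in the WT libraries. Tnfaip3, Traf1, Tnip1 and Nfkbie followed at overlapping levels of 26.3 to 30.7 FPKM, and Nfkbiz and Bcl3 were lowest. In R111A cells the order changed. Nfkbid overlapped Nfkbib there, and Nfkbie fell behind the 3 feedback genes to the level of Nfkbiz. FPKM is per length, so these orders compare levels between genes.

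**Figure D1:**
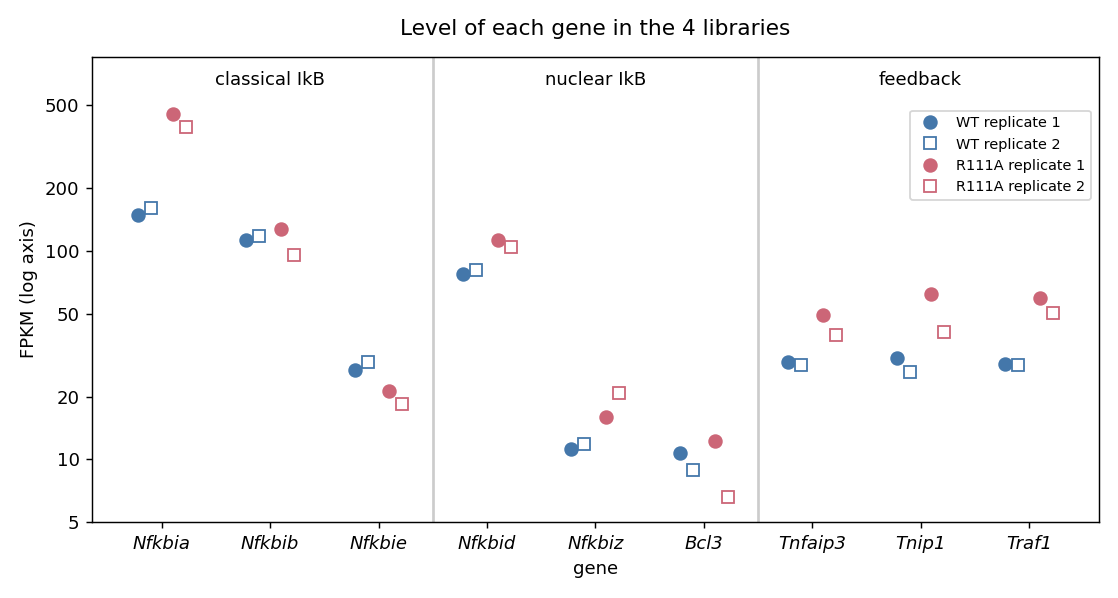
FPKM of the 9 genes in each of the 4 libraries, on a log scale, with 1 point a library and genes ordered by role. Nfkbia ran from 149 FPKM in WT replicate 1 to 451 FPKM in R111A replicate 1, and Bcl3 was the lowest gene, at 6.58 FPKM in R111A replicate 2. The groups did not overlap for 7 of the 9 genes and overlapped for Nfkbib and Bcl3. R111A was above WT for 6, beside 32.0% of all genes tested, and below for 1, beside 46.3%.

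Of the 9 genes, 6 were called higher in R111A cells at an adjusted p under 0.05, where 21.2% of all genes tested were. Only 1 of the 9 was called lower, where 32.1% of all genes were. With a 2-fold change added, 1 of the 9 was called higher, Nfkbia, beside 8.52% of all genes. Both R111A libraries were above both WT libraries for 6 of the 9, beside 32.0% of all genes, and below them for 1 of the 9, beside 46.3%. By adjusted p alone, most of the members thus rose in a table where more genes were called lower than higher. With a 2-fold change added, 838 genes were higher and 820 lower on FPKM, against 580 and 1756 in TPM. The paper's own test on counts, at its 2-fold threshold, lists more genes up than down. The median log2 fold change of the members was 0.59 on FPKM and 0.27 after rescaling to TPM, higher under both. After rescaling to TPM, 3 of the 9 were called higher (Nfkbia, Tnip1 and Traf1), beside 13.5% of all genes, and 2 lower (Nfkbib and Nfkbie), beside 51.8%. That rescaling also moved the calls over the whole table, from 2088 higher and 3152 lower genes to 1337 and 5128, so 39.8% of the calls were higher on FPKM and 20.7% after it. The count of 6 higher members fell to 3 without WT replicate 1 and to 3 without WT replicate 2. In simulated data the share of false calls could pass the nominal level, so calls near 0.05 carry less weight. In each of the fits without a WT library the lone WT library was assumed to vary like the R111A libraries, which are the less alike pair.

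**Figure D2:**
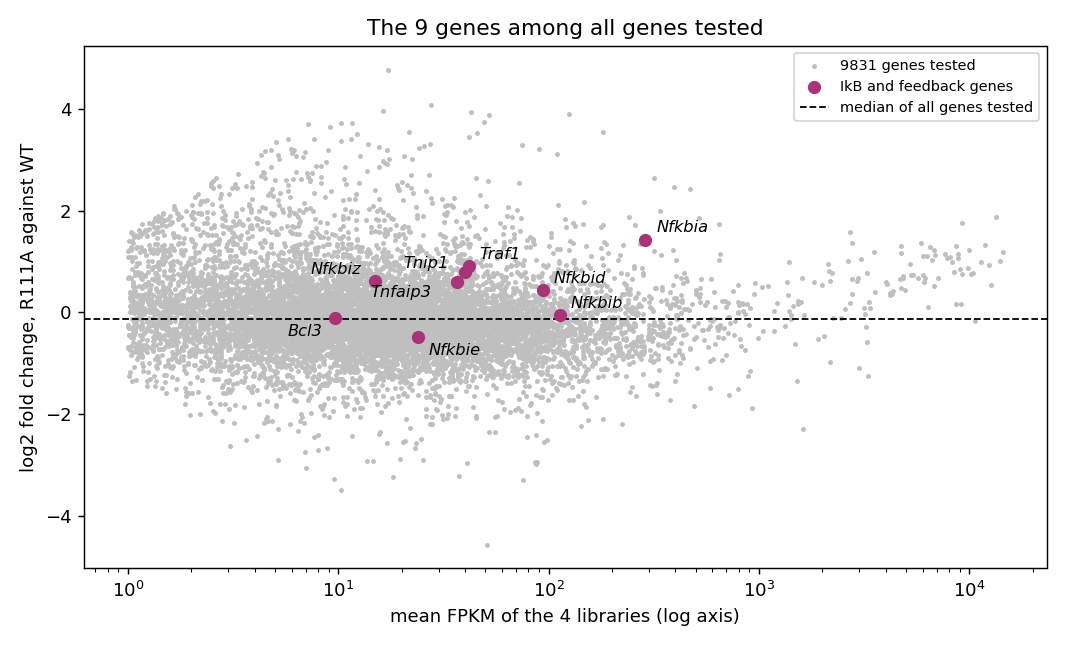
Log2 fold change (R111A against WT, on log2(FPKM + 1)) against mean expression for the 9831 genes tested, with the 9 genes named. All genes had a median of -0.12, and a higher change than that of Nfkbia (1.43) was seen for 4.57% of them.

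The promoters of the members were searched for the κB consensus, the sequence that NF-κB dimers bind, on both strands. This search, and the choice of sequences shown, were made after the values had been seen. Windows of 250 bases before to 50 bases after the start were in the promoter set used (RefSeq, GRCm38.p6) for 8 of the 9 genes, matched by symbol. Nfkbiz is a RefSeq gene but had no window in this set. The consensus was found for 6 of these 8 genes, beside 9.55% of all genes with a promoter, and in 8.46% of all 32851 promoters of this length. Of the genes tested here that have a promoter, 12.0% held it. It was not found in these windows for Nfkbib and Traf1. The members were listed as IκB and NF-κB feedback genes, some of which NF-κB is known to induce. A high share of κB matches could thus follow from that choice, whatever these libraries show. AP-1 motifs (TGANTCA, both strands) were found for 2 of the 8 genes, Nfkbie and Tnfaip3. They were found for 8.97% of all genes with a promoter, in 7.81% of all promoters and for 5.46% of tested genes. Promoters with a κB match are given for 2 genes of the classical group with opposite changes, for the most abundant nuclear IκB gene and for 2 feedback genes, with the match in capitals. A match describes letters and not binding, and the binding of NF-κB was not measured.
Nfkbia promoter: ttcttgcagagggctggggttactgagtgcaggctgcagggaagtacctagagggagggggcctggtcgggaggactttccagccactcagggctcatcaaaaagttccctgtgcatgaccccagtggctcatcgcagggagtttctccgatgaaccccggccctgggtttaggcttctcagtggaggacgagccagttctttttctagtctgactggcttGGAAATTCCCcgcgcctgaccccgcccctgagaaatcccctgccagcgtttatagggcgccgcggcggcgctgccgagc
Nfkbie promoter: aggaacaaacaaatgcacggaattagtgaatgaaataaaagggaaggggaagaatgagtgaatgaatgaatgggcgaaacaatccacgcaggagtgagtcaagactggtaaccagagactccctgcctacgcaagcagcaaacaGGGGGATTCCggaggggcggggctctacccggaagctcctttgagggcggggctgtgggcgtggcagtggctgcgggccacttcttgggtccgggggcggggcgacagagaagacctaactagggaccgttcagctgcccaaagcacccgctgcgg
Nfkbid promoter: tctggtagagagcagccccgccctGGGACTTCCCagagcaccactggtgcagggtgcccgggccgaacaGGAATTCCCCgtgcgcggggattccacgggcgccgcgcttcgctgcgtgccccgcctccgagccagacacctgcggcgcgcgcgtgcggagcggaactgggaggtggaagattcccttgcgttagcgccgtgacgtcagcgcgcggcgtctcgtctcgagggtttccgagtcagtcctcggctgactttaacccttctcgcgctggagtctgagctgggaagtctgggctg
Tnfaip3 promoter: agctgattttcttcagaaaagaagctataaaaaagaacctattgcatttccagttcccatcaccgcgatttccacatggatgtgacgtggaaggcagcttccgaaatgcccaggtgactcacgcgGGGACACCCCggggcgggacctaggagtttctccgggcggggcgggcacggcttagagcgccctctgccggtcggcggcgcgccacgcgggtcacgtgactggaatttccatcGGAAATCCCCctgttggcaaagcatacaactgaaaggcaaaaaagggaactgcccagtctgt
Tnip1 promoter: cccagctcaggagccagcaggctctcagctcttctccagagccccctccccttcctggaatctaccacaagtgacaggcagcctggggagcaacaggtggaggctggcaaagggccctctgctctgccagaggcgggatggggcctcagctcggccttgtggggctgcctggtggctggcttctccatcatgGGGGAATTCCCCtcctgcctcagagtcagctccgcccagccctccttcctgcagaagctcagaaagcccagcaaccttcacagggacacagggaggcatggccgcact
These windows lie at chr12:55492598-55492897 (minus strand) for Nfkbia, chr17:45555450-45555749 (plus) for Nfkbie, chr7:30422156-30422455 (plus) for Nfkbid, chr10:19015361-19015660 (minus) for Tnfaip3 and chr11:54962891-54963190 (minus) for Tnip1. The match nearest to a start among these was that of Tnfaip3, 12 bases before it, with another 125 bases before. The match of Nfkbia began 29 bases before the start, that of Tnip1 58 and that of Nfkbie 106. Nfkbid held 2 matches, 226 and 181 bases before the start of the second of its 3 promoters, with none in the other 2. Bcl3 (chr7:19822706-19823005, minus) held a match just after its start, from base 3 to 12, and its level did not separate the groups.

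Among the classical IκB genes, Nfkbia (chr12:55489409-55492647) encodes IκBα, the inhibitor that is degraded and resynthesised fastest after stimulation. It stood at 149 and 161 FPKM in WT replicates 1 and 2, against 451 and 391 FPKM in R111A replicates 1 and 2. Both R111A libraries were far above both WT libraries, and the groups did not overlap. The log2 fold change was 1.43 (standard error 0.13, 95% interval 1.13 to 1.73, n = 2 and 2), with an adjusted p = 5.9e-05 and a range of 1.2e-17 (with a block for the replicate number) to 0.0033 over the alternatives. It was higher under both scalings, at 1.43 on FPKM and 1.10 in TPM, which is 1.55 and 1.52 above the median of all genes. Without 1 library it ran from 1.33 to 1.54, and the call was kept each time. Nfkbia ranked above 93.1% of the genes tested in WT cells and above 97.9% in R111A cells.

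Nfkbib (chr7:28758251-28766644) encodes IκBβ, which is degraded more slowly and can keep NF-κB dimers bound for longer. Its values were 113 and 118 FPKM in WT and 127 and 95.9 FPKM in R111A. The R111A libraries lay on either side of the WT libraries, so the groups overlapped. The log2 fold change was -0.06 on FPKM, slightly lower, and -0.39 in TPM, lower (adjusted p = 0.76 and 0.034; 0.034 to 0.94 over the alternatives), or 0.05 and 0.02 above the medians of all genes. Nfkbib therefore moved with the typical gene under both scalings. Without R111A replicate 1 it was called lower, at -0.26 (adjusted p = 0.041).

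Nfkbie (chr17:45555700-45563169) encodes IκBε, a further cytoplasmic inhibitor that NF-κB can also induce. It stood at 27.0 and 29.2 FPKM in WT cells, against 21.3 and 18.3 FPKM in R111A cells. The R111A libraries were both below the WT libraries, without overlap, and Nfkbie was the only one of the 9 genes to show this. Its log2 fold change was -0.49 (standard error 0.14), lower on FPKM, and -0.81 in TPM, also lower, with an adjusted p = 0.019 and 0.00046 and a range of 0.00046 to 0.25 over the alternatives. Relative to the median of all genes it was -0.37 and -0.39, so it fell by more than the typical gene. The call was lost without WT replicate 1 (-0.54, adjusted p = 0.13), without WT replicate 2 (-0.43, adjusted p = 0.25), and with all libraries under quantile normalization (-0.39, adjusted p = 0.053). Nfkbia and Nfkbie thus moved in opposite directions. Both hold a κB match in the windows above, and whether these matches act in the cells was not tested.

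**Figure D3:**
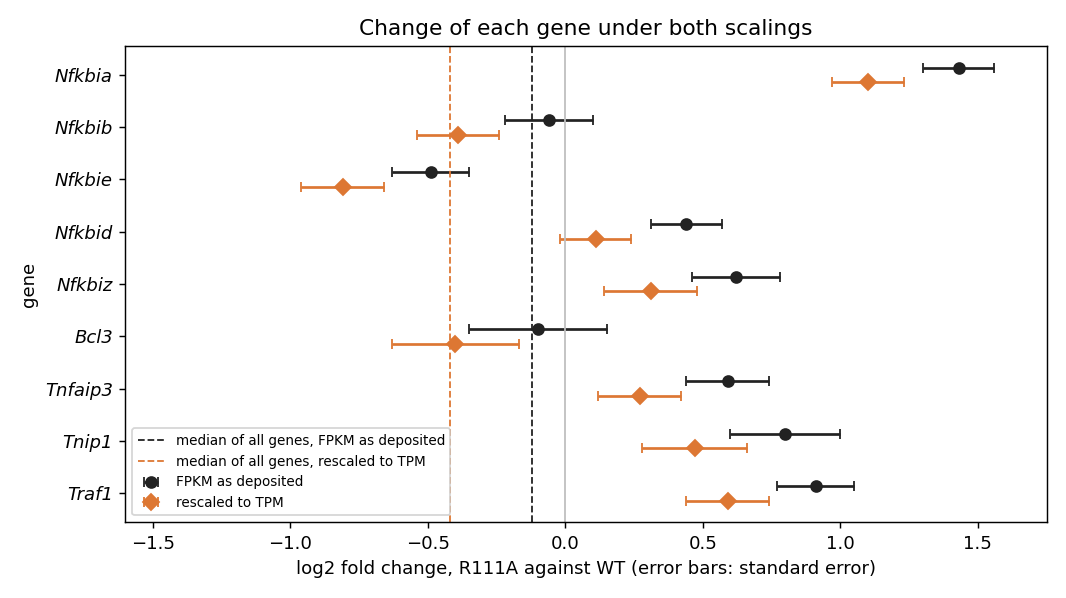
Log2 fold change with standard error of each gene on FPKM (black circles) and after rescaling to TPM (orange diamonds), with the median of all genes as dashed lines. Nfkbia was higher under both (1.43 and 1.10), Nfkbie was lower under both (-0.49 and -0.81), and Nfkbid was higher under both but close to 0 in TPM (0.44 and 0.11).

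Of the nuclear IκB genes, 2 of 3 were called higher on FPKM, beside 21.2% of all genes, and 0 in TPM, beside 13.5%. Nfkbid (chr7:30421731-30428749) encodes IκBNS, which binds NF-κB in the nucleus and is induced in activated T cells. It stood at 77.6 and 80.7 FPKM in WT cells, against 112 and 104 FPKM in R111A cells. The groups did not overlap, R111A being higher, and replicates of either group were close. On FPKM the log2 fold change was 0.44 (standard error 0.13, adjusted p = 0.016) and 0.11 in TPM (adjusted p = 0.48), higher under both but called only on FPKM, with a range of 0.0025 to 0.48 over the alternatives. Against the medians of all genes it was 0.56 and 0.53 higher. Its call was lost without WT replicate 1 (0.42, adjusted p = 0.22) or WT replicate 2 (0.47, adjusted p = 0.16).

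Nfkbiz (chr16:55811375-55838954) encodes IκBζ, a nuclear coactivator of a subset of NF-κB targets, and its mRNA is a known target of Regnase-1, which cleaves stem-loops in 3′UTRs. It stood at 11.3 and 11.9 FPKM in WT cells, against 16.1 and 20.8 FPKM in R111A cells. Both R111A libraries were above both WT libraries and differed from each other by more than the WT libraries did. The change was 0.62 on FPKM (standard error 0.16, adjusted p = 0.011) and 0.31 in TPM (adjusted p = 0.14), higher under both, with a range of 0.00094 (replicate block) to 0.14 over the alternatives. This is 0.73 and 0.72 above the median of all genes. The call of Nfkbiz was lost without WT replicate 1 (0.58) or WT replicate 2 (0.65). The level of this known target was thus not lower in R111A cells. Other mRNAs that the paper names as targets were lower in both R111A libraries. Il2 was -4.56 on FPKM and -4.88 in TPM, and Cd44 was -1.16 and -1.48. Rel was -0.30 on FPKM, not called, and -0.63 in TPM (adjusted p = 0.0091). Further targets named there, such as Icos, were not read here, and the decay of these mRNAs was not tested.

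Bcl3 (chr7:19808462-19822824) encodes a nuclear IκB protein that can act as a coactivator with NF-κB homodimers. It was the lowest of the 9 genes, at 10.7 and 8.87 FPKM in WT and 12.3 and 6.58 FPKM in R111A. The R111A libraries lay above and below both WT libraries, so no direction was shared. Its log2 fold change was -0.10 on FPKM and -0.40 in TPM, lower under both (adjusted p = 0.77 and 0.13; 0.021 to 0.97 over the alternatives), and 0.02 above the median of all genes in each. Without R111A replicate 1 it was called lower (-0.50, adjusted p = 0.021), and without R111A replicate 2 it was 0.31 (adjusted p = 0.079).

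Since Regnase-1 recognises stem-loops with a pyrimidine-purine-pyrimidine loop, such hairpins were predicted in the 3′UTRs of the 9 genes (GENCODE M21, GRCm38), a step added after the values had been seen. With a stem of at least 3 base pairs and a loop of 3 to 6 bases, 8 of the 9 genes had at least 1, beside 80.8% of 9481 genes, so such hairpins are common. Those shown are 2 of Nfkbiz, the known target, 1 of Nfkbia, the gene with the largest change, and 1 of Nfkbib, the gene with the most hairpins per length, with the loop in capitals.
Nfkbiz hairpin 1: ttgtttcTATgaaacaa
Nfkbiz hairpin 2: tagttcactatTATatagtggatta
Nfkbia hairpin: tattttggTACTTctaagatg
Nfkbib hairpin: agtgaggaCCACCAtccttgct
They lie on the minus strand at chr16:55812613-55812629 and chr16:55812581-55812605 for Nfkbiz, chr12:55489439-55489459 for Nfkbia and chr7:28758525-28758546 for Nfkbib. Nfkbib had 6.55 hairpins per kb of 3′UTR, Nfkbid 5.37, Nfkbie 4.54 and Nfkbiz 3.69, against a median of 2.46 for all genes. Tnip1 had 2.67, Nfkbia 1.95, Traf1 1.88 and Tnfaip3 0.549, and Bcl3 had 0. Of the 4 genes with the most hairpins per kb, Nfkbid and Nfkbiz were called higher on FPKM and not called in TPM. Nfkbie was called lower under both scalings. Nfkbib did not separate the groups on FPKM and was called lower in TPM. Cleavage of these hairpins was not measured.

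All 3 feedback genes were called higher on FPKM, beside 21.2% of all genes, and 2 of them in TPM, beside 13.5%. Tnfaip3 (chr10:19000910-19015410) encodes A20, a ubiquitin-editing enzyme that ends NF-κB signals and is itself cut by MALT1. It stood at 29.4 and 28.4 FPKM in WT cells, against 49.0 and 39.5 FPKM in R111A cells. Again R111A was higher without overlap, and the WT pair was almost equal. The log2 fold change was 0.59 on FPKM (standard error 0.15, adjusted p = 0.0094) and 0.27 in TPM (adjusted p = 0.14), higher under both, with a range of 0.0008 (replicate block) to 0.14 over the alternatives, and 0.71 and 0.68 above the median of all genes. The call was lost without WT replicate 1 (0.62, adjusted p = 0.071) or WT replicate 2 (0.57, adjusted p = 0.1).

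Tnip1 (chr11:54910787-54962956) encodes ABIN1, a ubiquitin-binding partner of A20. It stood at 30.7 and 26.3 FPKM in WT cells, against 61.8 and 40.8 FPKM in R111A cells. The groups did not overlap, and R111A replicate 1 was 1.51 times R111A replicate 2, so the size of the rise differed between the replicates. The change was 0.80 on FPKM (standard error 0.20, adjusted p = 0.009) and 0.47 in TPM (adjusted p = 0.039), higher under both, with a range of 3.8e-06 (replicate block) to 0.057 over the alternatives. It was 0.91 and 0.89 above the median of all genes. Left out in turn, the libraries gave 0.51 to 1.09, and the call was kept each time. It was lost only with no expression filter, where the adjusted p was 0.057.

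Traf1 (chr2:34941750-34961812) encodes an adaptor that lacks the RING domain of other TRAF proteins and joins receptors of the TNF family to TRAF2 and the cIAP ligases. It stood at 28.7 and 28.5 FPKM in WT cells, against 59.4 and 50.2 FPKM in R111A cells. Both R111A libraries were far above the WT pair, which was almost equal. The log2 fold change was 0.91 (standard error 0.14, adjusted p = 0.0008) on FPKM and 0.59 in TPM (adjusted p = 0.0036), higher under both and a range of 1.1e-07 (replicate block) to 0.0081 over the alternatives. That is 1.03 and 1.00 above the median of all genes, the second largest rise of the 9 after Nfkbia. No κB match was found in its window, and the cause of the rise was not tested. It was called without any 1 of the libraries, at 0.79 to 1.03.

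The 6 IκB genes were next read as a pool, in which shares do not depend on library scaling. Nfkbia made up 38.3% and 39.3% of their summed FPKM in WT and 60.9% and 61.4% in R111A. It was thus over 50% of the pool only in R111A cells, with a mean difference of 22.4 percentage points that ran from 21.9 to 22.8 when each library was left out. Nfkbib made up 29.1% and 28.8% in WT and 17.2% and 15.1% in R111A. Its share fell although its level on FPKM did not separate the groups. After rescaling to TPM its level was lower in both R111A libraries, at 141 and 141 in WT against 121 and 94.7. Nfkbie made up 6.95% and 7.14% in WT and 2.88% and 2.88% in R111A. Nfkbid, which rose in level, made up about 20% in both WT libraries and 15.2% and 16.3% in R111A, a lower share. The shares of Nfkbiz overlapped between the groups, at 2.90% and 2.91% in WT and 2.17% and 3.27% in R111A. Bcl3 had the smallest shares in R111A, at 1.67% and 1.03%, against 2.75% and 2.17% in WT.

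**Figure D4:**
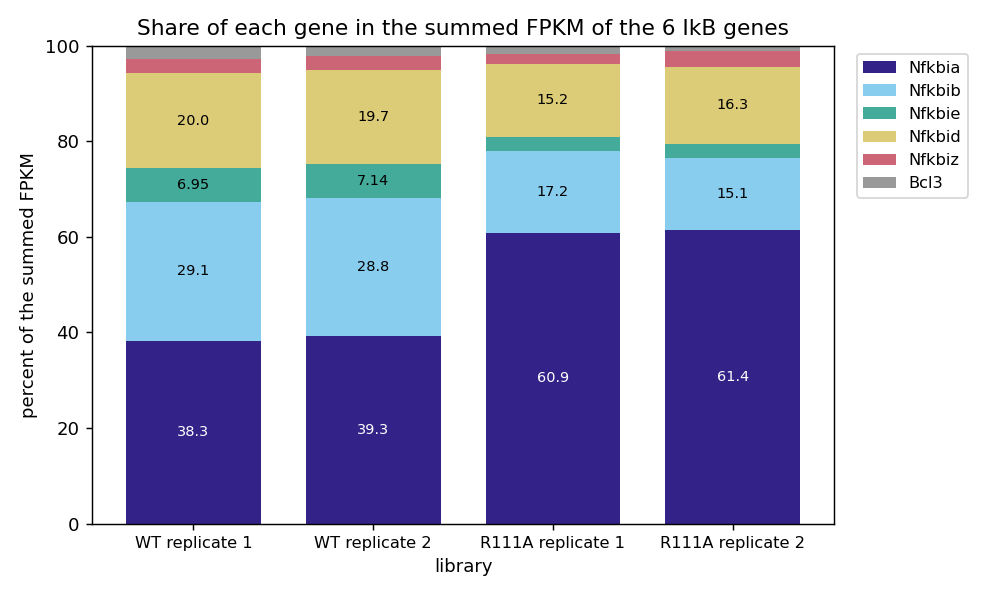
Share of each of the 6 IκB genes in their summed FPKM in each library, as stacked bars. Nfkbia made up 38.3% and 39.3% in WT and 60.9% and 61.4% in R111A, and the share of Nfkbib fell from 29.1% and 28.8% to 17.2% and 15.1%.

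Against its partners, Nfkbia rose in the same way. The ratio of Nfkbia to Nfkbib was 1.32 and 1.37 in WT and 3.54 and 4.08 in R111A. Its ratio to Nfkbie was 5.52 and 5.51 in WT and 21.2 and 21.3 in R111A, the most even replicates of any ratio here. Its ratio to Rela, which encodes the p65 subunit that IκBα binds, was 2.14 and 2.48 in WT and 4.82 and 6.47 in R111A. The 6 IκB genes summed to 0.781 and 0.848 times the 5 NF-κB subunit genes in WT and to 1.11 and 1.26 times in R111A. The 3 classical genes alone summed to 0.581 and 0.638 times the subunit genes in WT and to 0.902 and 1.00 times in R111A. Nfkbia alone was 0.299 and 0.333 times the subunit genes in WT and 0.678 and 0.776 times in R111A, so the rise of both sums came from Nfkbia. Only the sum with the nuclear IκB genes clearly passed the subunit genes in both R111A libraries. Protein was not measured, and for IκB proteins the mRNA level does not give the amount, because they are degraded after stimulation. The ratio of Traf1 to Traf2 was 1.43 and 1.28 in WT and lower in R111A, at 1.07 and 0.935, since Traf2 rose by more.

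The genes around the members were read from 6 lists written by hand, with 48 genes tested (Tnip3 and Ebi3 were below the filter). In all, 13 of the 48 were called higher, 10 lower and 25 neither, beside 21.2% higher and 32.1% lower over all genes tested, and the median log2 fold change was 0.03 on FPKM and -0.27 in TPM. By TPM 7 were called higher and 22 lower (beside 13.5% and 51.8% of all genes), among them Ebi3, which passed the filter on that scale. The pathway genes thus went in both directions, as the whole table did. Of the 5 NF-κB subunit genes, 1 was called higher and 0 lower on FPKM, against 0 and 2 in TPM, and the most abundant, Nfkb1, was at 235, 225, 344 and 261 FPKM in the order WT replicates 1 and 2 and R111A replicates 1 and 2 (0.38, adjusted p = 0.063; 0.05 in TPM, higher under both). Of 10 genes of IκB kinase, related kinases, and the kinases and adaptors upstream, 3 were higher (Tab1, Tbk1 and Ikbke) and 0 lower on FPKM. In TPM 2 were higher (Tbk1 and Ikbke) and 0 lower. Chuk, Ikbkb and Ikbkg, which encode IκB kinase itself, were not called under either scaling. Ikbkb was the most abundant by the mean of the 4 libraries, at 34.0, 32.0, 36.7 and 36.3 FPKM (0.14, adjusted p = 0.38; -0.18 in TPM, so of opposite direction). Neither Nfkb1 nor Ikbkb was called.

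Over all genes tested, 21.2% were called higher and 32.1% lower on FPKM, and 13.5% and 51.8% in TPM, and the counts of the next lists are to be read beside these shares. Of 5 TRAF and cIAP genes, which work with Traf1, 3 were higher and 0 lower on FPKM, against 1 and 1 in TPM. Traf2 was at 20.1, 22.3, 55.3 and 53.7 FPKM (1.32, adjusted p = 8.6e-05; 1.00 in TPM, higher under both), and Birc3 at 47.8, 45.8, 67.8 and 86.7 FPKM (0.70, adjusted p = 0.0046; 0.37 in TPM, adjusted p = 0.058, higher under both and called only on FPKM). Traf2 and Birc3 thus rose in both R111A libraries, as Traf1 did. Of 5 genes of the SCF β-TrCP ligase, which marks IκBα for degradation, 0 were higher and 2 lower on FPKM, against 0 and 4 in TPM, and the most abundant, Skp1, overlapped between the groups. Of 9 other ubiquitin editors and inhibitors, 1 was higher and 3 lower on FPKM, against 0 and 7 in TPM. Rnf11, a partner of A20, was at 16.5, 20.6, 6.07 and 7.80 FPKM (-1.30, adjusted p = 0.00038; -1.62 in TPM, lower under both). Pdlim2, which ends NF-κB action in the nucleus, was at 22.2, 23.3, 10.7 and 7.32 FPKM (-1.27, adjusted p = 0.00055; -1.59 in TPM, lower under both). Tax1bp1, a further partner of A20, was higher at 62.8, 60.1, 76.5 and 108 FPKM (0.56, adjusted p = 0.024; 0.23 in TPM, adjusted p = 0.27, higher under both and called only on FPKM).

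**Figure D5:**
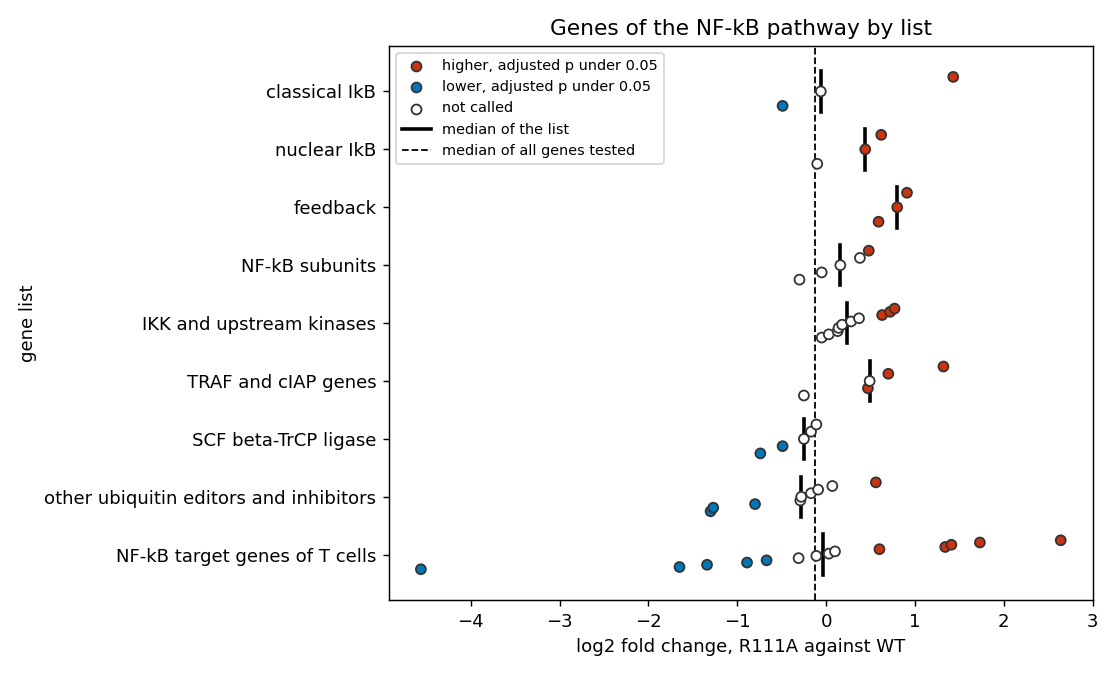
Log2 fold change on FPKM of every gene tested in the 3 groups of members and the 6 pathway lists, with red for genes called higher, blue for genes called lower and white for the rest. The median was 0.80 for the feedback genes (0.47 in TPM, higher under both), -0.25 for the SCF β-TrCP ligase (-0.58 in TPM, lower under both) and -0.04 for the target genes (-0.37 in TPM, lower under both).

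Other NF-κB target genes of T cells also went in both directions, with 5 of 14 called higher and 5 lower on FPKM, beside 21.2% and 32.1% of all genes. In TPM 4 of these 14 were called higher and 7 lower, and Ebi3, which is not among the 14, was also called lower (-0.83). Ltb was at 275, 320, 1085 and 897 FPKM (1.73, adjusted p = 3.9e-05; 1.40 in TPM, higher under both). Gadd45b was at 76.8, 96.2, 617 and 476 FPKM (2.64, adjusted p = 1.2e-05; 2.31 in TPM, higher under both). Both rose by more than Nfkbia. Tnfrsf9 (1.34 on FPKM, 1.01 in TPM) and Tnfrsf1b (1.41 on FPKM, 1.09 in TPM), receptors of the TNF family, were higher under both scalings with adjusted p = 6.3e-05 and 0.00021 on FPKM. Irf4 was at 426, 368, 117 and 135 FPKM (-1.65, adjusted p = 3.8e-05; -1.98 in TPM, lower under both), and Csf2 was lower under both (-1.34 on FPKM, -1.55 in TPM). Il2 had the largest change of the list, lower under both (-4.56 on FPKM, -4.88 in TPM). Il2ra, the most abundant of the rest by the mean of the 4 libraries, was lower under both scalings and called only in TPM (-0.11 on FPKM, adjusted p = 0.47; -0.44 in TPM, adjusted p = 0.011). Higher Nfkbia, Tnfaip3, Tnip1 and Traf1 were thus seen beside targets of both directions, and the activity of NF-κB itself was not measured.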

How the data were processed

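The authors selected polyA RNA, aligned reads to mm10 with Bowtie2 (version 2.4.4), estimated expression with RSEM (version 1.2.28) and deposited FPKM values of 16142 genes for 4 libraries. FPKM values carry no read counts, and the authors' DESeq2 step on counts was not repeated. No per-sample column was left unused (0 columns). The members and the lists were chosen with earlier results of these data known.

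The test was limma 3.58.1 under R 4.3.3 (lmFit, then eBayes with a trend) on log2(FPKM + 1), with Benjamini-Hochberg adjustment over the 9831 genes whose mean reached 1 FPKM. A call is an adjusted p under 0.05, with a 2-fold change where stated. The procedure was tested on simulated data drawn with limma's own shrunken variances, a setting that favours it and was chosen after a first run with each gene's raw variance. Many changes of 2-fold were missed with raw variances. With shrunken variances they were recovered, and the share of false calls passed the nominal level at 2-fold. TPM is each library's FPKM rescaled to the same total, and it shifts every gene of a library alike. Shares and ratios use FPKM without an offset.

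All 9 members are named, and Zc3h12a is named as the gene of the transgene. Of the planned pathway lists, 1 is not reported and entered no count. From each pathway list the genes named are those called with a 2-fold change and the most abundant of the others, by the mean of the 4 libraries here and in the marker lists. Rel, Chuk, Ikbkg, Tab1, Tbk1 and Ikbke were added after their values were seen. From each marker list the most abundant gene and genes at 0 are named, with Cd4 added because it defines the label and Cd69, Egr1, Egr2, Cd44, Tfrc and Ikzf2 added after their values were seen.

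Promoters are from RefSeq (GRCm38.p6) and 3′UTRs from GENCODE M21, with 1 coding transcript a gene cut in windows of 100 bases and folded with RNAfold (version 2.7.2). Members were matched to RefSeq by symbol, 9 of 9. Other steps used python 3.11.15, numpy 2.4.6, pandas 2.3.3 and matplotlib 3.10.9. The alternatives were 11 settings on all libraries, of which 1 (limma arrayWeights) was added after the data were seen, and each of the 4 libraries left out. Leaving out libraries for the share of Nfkbia was also chosen after the data were seen.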

Additional observations from a re-analysis of the deposited data

How the results depend on the processing

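Rescaling to TPM changed the most counts. Genes called higher went from 2088 to 1337 and lower from 3152 to 5128, members called higher from 6 to 3 and lower from 1 to 2, and pathway list genes from 13 to 7 higher and from 10 to 22 lower. Under quantile normalization 0 members were called lower. Members higher by 2-fold went from 1 to 2 under quantile normalization and with median-of-ratios factors. Nfkbib turned from -0.06 to 0.17 and 0.03 under these 2 settings. The cause was not tested.

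With 1 library left out, a lone library is assumed to vary like the other group. Members called higher ran from 3 to 6, higher by 2-fold from 1 to 3 and lower from 0 to 3. Genes called lower ran from 1903 to 3883 and pathway list genes called higher from 8 to 18 and lower from 7 to 18. Nfkbib ran from -0.26 to 0.14 and Bcl3 from -0.50 to 0.31. The cause was not tested.

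Counts with a 2-fold change depend on the offset and filter. Against 838 higher and 820 lower genes, a pseudocount of 5 FPKM gave 386 and 402, and a filter at 5 FPKM gave 521 higher. TPM gave 1756 lower.

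A replicate block gave 2236 higher and 3358 lower genes and the same 6 and 1 members. With 2 pairs, replicates may share only a number. The very low adjusted p of this fit, such as 1.2e-17 for Nfkbia, therefore carries little weight.

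With limma arrayWeights, added after the data were seen, WT libraries weighed 2.27 and R111A libraries 0.44. No member lost its call.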

Other observations

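The ratio of Nfkbia to Nfkbie was 5.52 and 5.51 in WT and 21.2 and 21.3 in R111A, closer between replicates than the level of either gene, which in R111A replicate 1 was 1.15 (Nfkbia) and 1.16 (Nfkbie) times that in replicate 2. This pair was picked after the values were seen, and no cause was tested.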
